A study of Mus musculus with 4 samples.

Results

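A set of 9 genes of actin-binding proteins was followed in 4T1-S and 4T1-A, a pair of sub-lines of 4T1, a transplantable breast tumour line that arose in a BALB/c mouse. The genes were Lcp1, Pls3, Cobl, Fscn1, Actn1, Actn4, Ezr, Coro1a and Capg, taken by gene name from the array design, which lists Ezr under its older name Vil2. RefSeq places Lcp1 on chromosome 14, Pls3 on X, Cobl on 11, Fscn1 on 5, Actn1 on 12, Actn4 and Coro1a on 7, Ezr on 17 and Capg on 6. They made up 9 of 27670 gene names and 11 of 41174 probes, and none of their spots was saturated or carried an outlier flag. The set was put together with the difference between the sub-lines already known, so the values of its members are given as a description and without a test. Total RNA of each sub-line was labelled with Cy3 and hybridised to 2 one-colour Agilent arrays. The title of the series calls 4T1-S highly immunogenic, and the labels give no other treatment or genotype for either sub-line. Nor do they say how the sub-lines were derived, or whether replicate arrays had cultures of their own, and the spread between them may be technical. All 4 arrays lay on 1 slide, with 4T1-S at positions 3 and 4 and 4T1-A at positions 1 and 2, so slide position and sub-line cannot be told apart. Levels are the processed intensity divided by the 75th percentile of that array, which was 405 and 498 in 4T1-S and 467.5 and 577 in 4T1-A, and differences are on the log2 scale as 4T1-S minus 4T1-A.

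Actin filaments are built from monomers by nucleators, held in bundles or networks by crosslinkers, tied to the plasma membrane by linker proteins and limited by capping proteins. Lcp1 and Pls3 encode plastins, which hold filaments in tight parallel bundles. Fscn1 encodes fascin, the bundler of filopodia, and Actn1 and Actn4 encode alpha-actinins, which crosslink filaments at adhesions and in stress fibres. Cobl encodes cordon-bleu, which is a nucleator and not a bundler in the strict sense. Ezr encodes ezrin, a linker of filaments to the membrane in microvilli, Coro1a a coronin of blood cells and Capg a gelsolin-related protein that caps filament ends. Lcp1 is known as the plastin of leukocytes and is also made by many carcinoma cells, whereas Pls3 is the form of most solid tissues.

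The upstream sequences of Lcp1 and Cobl are printed because these genes had the largest differences of the 9. RefSeq annotates a pair of starts for each on GRCm38.p6, a build that the array files do not name. For Lcp1, on the plus strand, the 250 bases before the first start lie at chr14:75130873-75131122 and those before the second at chr14:75136175-75136424. For Cobl, on the minus strand, they lie at chr11:12464961-12465210 and chr11:12412141-12412390. Each is written in the direction of the gene, and capitals mark the GC box, GGGCGG on either strand.
Lcp1 first start: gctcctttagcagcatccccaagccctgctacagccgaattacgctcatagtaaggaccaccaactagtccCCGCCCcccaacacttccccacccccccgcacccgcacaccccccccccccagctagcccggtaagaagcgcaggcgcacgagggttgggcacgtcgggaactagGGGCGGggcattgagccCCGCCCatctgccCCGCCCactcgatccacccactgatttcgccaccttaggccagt
Lcp1 second start: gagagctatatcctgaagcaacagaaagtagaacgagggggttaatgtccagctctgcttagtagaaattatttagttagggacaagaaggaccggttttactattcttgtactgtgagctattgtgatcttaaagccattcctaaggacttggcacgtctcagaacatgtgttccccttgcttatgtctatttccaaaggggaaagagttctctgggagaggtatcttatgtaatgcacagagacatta
Cobl first start: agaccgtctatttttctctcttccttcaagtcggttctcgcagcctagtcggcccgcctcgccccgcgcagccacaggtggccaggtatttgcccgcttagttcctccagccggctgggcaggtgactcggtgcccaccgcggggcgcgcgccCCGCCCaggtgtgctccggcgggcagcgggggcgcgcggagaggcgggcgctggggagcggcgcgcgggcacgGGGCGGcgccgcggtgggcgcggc
Cobl second start: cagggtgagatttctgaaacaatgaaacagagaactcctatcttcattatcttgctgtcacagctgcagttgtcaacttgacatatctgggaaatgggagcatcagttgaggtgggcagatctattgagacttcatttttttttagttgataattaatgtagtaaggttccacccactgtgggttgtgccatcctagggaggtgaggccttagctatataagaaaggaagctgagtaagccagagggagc
The first window held 4 GC boxes in Lcp1 and 2 in Cobl, and these letters were not in either second window. The first windows were 66.0% and 75.2% G or C and the second 41.6% and 43.2%, against a median of 52.4% over 32851 windows of 250 bases. A GC box stood in 32.7% of all windows and in 7 of the 14 windows of the 9 genes. The E-box, with the letters CANNTG, was in all 4 windows printed and in 66.2% of all windows, counting either strand. The AP-1 motif, with the letters TGANTCA, was in none of these 4 and in 6.75% of all windows. The TATA box, searched as TATAAA on both strands, was likewise not among them and stood in 12.4% of all windows. No base lay in more than 1 of the motifs GC box, AP-1 and TATA. Which start is used in these cells is not known from probes.

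Lcp1 was the member with the largest difference, and both of its probes were lower in 4T1-S. Probe A_52_P56751 read 0.122 and 0.117 in 4T1-S, against 10.1 and 11.7 in 4T1-A. The 4 spots were well above background, and the 2 sub-lines lay far apart, with replicate gaps of 0.07 in 4T1-S and 0.22 in 4T1-A on the log2 scale. The difference was -6.51 ± 0.20 (SE, n = 2 arrays per sub-line), a 90.9-fold lower level. In processed intensity these spots measured 49.6 and 58.0 in 4T1-S, against 4700 and 6773 in 4T1-A. The scanner software gave each an error between 11.2% and 15.5%.

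The second Lcp1 probe, A_51_P275302, was detected in 4T1-A alone. It read 0.0247 and 0.0345 in 4T1-S, where neither spot was well above background, against 0.462 and 0.321 in 4T1-A. The arrays did not overlap, and the measured difference was -3.72 ± 0.26, or at least 6.73-fold lower. That bound sets the 4T1-A mean against, on each 4T1-S array, the higher of the probe's own signal and the lowest signal well above background. Spots not well above background can read higher than that lowest signal, so the bound is not a strict minimum. Both probes were lower in 4T1-S, and the second gives only this bound on the size. With normexp background correction, which adds 50 to each corrected intensity, A_52_P56751 was 39.8-fold lower and A_51_P275302 was 2.44-fold lower.

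Pls3, the other plastin among the members, differed little beside Lcp1. It read 32.3 and 25.4 in 4T1-S, against 35.5 and 38.7 in 4T1-A. Both 4T1-S arrays were below both 4T1-A arrays, by less than the gap between the 4T1-S arrays at the nearest pair. The difference was -0.37 ± 0.21. It was -0.66 with scaling to the median, -0.43 with quantile normalization, -0.42 with cyclic loess and -0.41 with normexp. Leaving out 1 array could not turn its sign, since the arrays did not overlap, and moved it as far as -0.20 without 4T1-S replicate 2.

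Cobl had a single probe, A_52_P451485, which was detected in 4T1-A alone. It read 0.0435 and 0.0330 in 4T1-S, not well above background on either array, against 1.22 and 1.48 in 4T1-A. The raw spot brightness was 115 and 118 in 4T1-S over a local background of 50 and 49, against 575 and 856 in 4T1-A over 54.5 and 52. The measured difference was -5.15 ± 0.22, or at least 23.5-fold lower in 4T1-S by the same bound as for Lcp1. In RNA from bulk cultures, fewer cells with a transcript and less of it per cell cannot be told apart, here and for Lcp1. With normexp the difference was -2.58, still lower in 4T1-S.

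**Figure D1:**
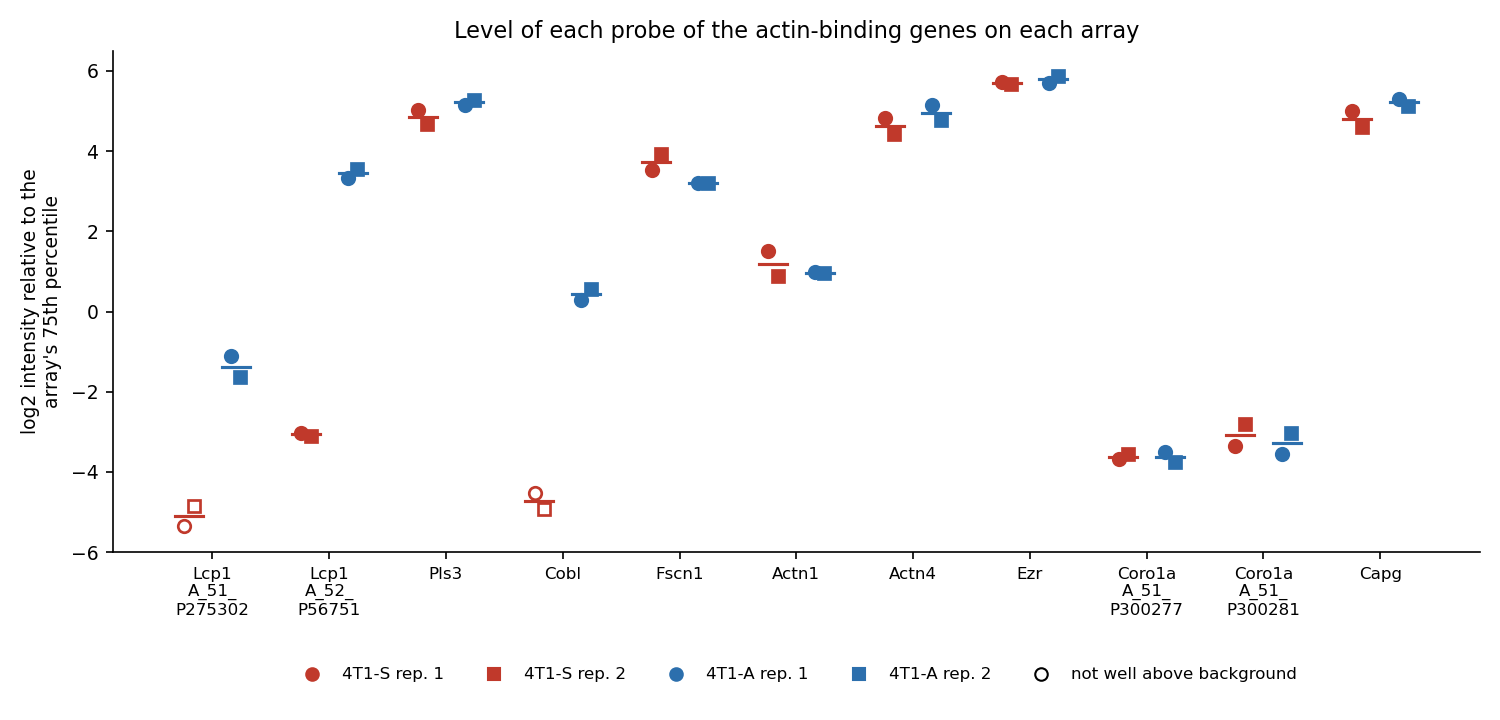
Log2 intensity of each of the 11 member probes relative to the array's 75th percentile, with 4T1-S to the left of 4T1-A, circles for replicate 1, squares for replicate 2, bars for the mean and open symbols for spots not well above background. The sub-lines lie far apart for both Lcp1 probes and for Cobl, and within 0.6 on the log2 scale for the means of the other 8 probes.

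Fscn1 was the one member with both 4T1-S arrays above both 4T1-A arrays. It read 11.5 and 15.2 in 4T1-S, against 9.16 and 9.24 in 4T1-A. The 4T1-A arrays were nearly equal, while the 4T1-S arrays differed by 0.40 on the log2 scale. The difference was 0.53 ± 0.21, and 0.39 relative to the median difference of all genes, which was 0.13. It ranged from 0.24 with scaling to the median to 0.72 without 4T1-S replicate 1.

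The alpha-actinins did not separate the sub-lines. Actn1 read 2.83 and 1.85 in 4T1-S, against 1.96 and 1.95 in 4T1-A. One 4T1-S array was above and the other below the 4T1-A pair. Its difference was 0.22 ± 0.24, and the sign turned without 4T1-S replicate 1 (-0.09) and with scaling to the median (-0.07). Actn4 read 28.5 and 21.4 in 4T1-S, against 35.7 and 27.1 in 4T1-A, with the higher 4T1-S array above the lower 4T1-A array. Its difference was -0.34 ± 0.24, close to the gap of 0.41 between the 4T1-S arrays and of 0.40 between the 4T1-A arrays.

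Ezr, the membrane linker, did not separate the sub-lines. It read 53.1 and 50.9 in 4T1-S, against 52.2 and 58.4 in 4T1-A. The ranges overlapped, and the difference was -0.09 ± 0.19. Capg read 31.8 and 24.1 in 4T1-S, against 39.6 and 34.9 in 4T1-A. Both 4T1-S arrays were lower, with a difference of -0.42 ± 0.22 that ranged from -0.71 with scaling to the median to -0.22 without 4T1-S replicate 2.

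Coro1a, a leukocyte coronin, was well above background on all 4 arrays with both of its probes. Its readings were dim, from 0.0742 to 0.144, where the lowest signal well above background was 0.0488 to 0.0596 by array. Small differences between such readings say little. Probe A_51_P300277 read 0.0779 and 0.0850 in 4T1-S, against 0.0877 and 0.0742 in 4T1-A, and differed by 0.01 ± 0.20. Probe A_51_P300281 read 0.0980 and 0.144 in 4T1-S, against 0.0860 and 0.123 in 4T1-A, and differed by 0.21 ± 0.27. The sub-lines overlapped on both probes, and the sign of each turned with quantile normalization (-0.29 and -0.01), scaling to the median (-0.28 and -0.09) and cyclic loess (-0.37 and -0.08). The sign also turned without 4T1-S replicate 2 (-0.05 and -0.07) on both probes, without 4T1-A replicate 2 on the first probe (-0.11) and without 4T1-A replicate 1 on the second (-0.06).

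**Figure D2:**
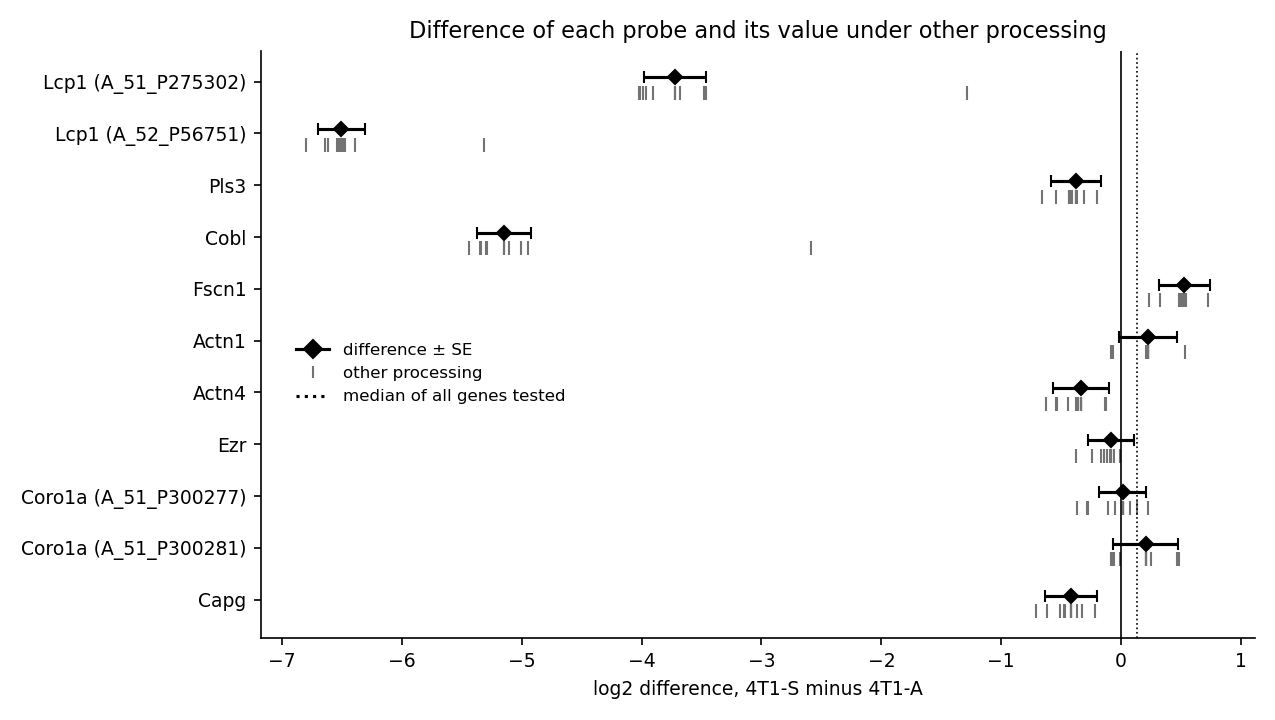
Log2 difference of each member probe, 4T1-S minus 4T1-A, as a diamond with bars of 1 SE, and its values under other processing as ticks below it; the dotted line is the median of all genes tested (0.13). The ticks set apart to the right of the Lcp1 and Cobl diamonds are those with normexp (-1.29, -5.31 and -2.58).

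Across the members, 3 of 11 probes were at least 2-fold lower in 4T1-S, the pair of Lcp1 probes and the Cobl probe, and 0 were at least 2-fold higher. Over all 23690 probes tested 2.62% were at least 2-fold lower and 2.24% at least 2-fold higher. Both 4T1-S arrays lay below both 4T1-A arrays for 5 member probes, above for 1 and overlapping for 5. In the background 18.7% of probes lay below and 37.8% above. Since the members were chosen from this comparison, nothing is read from these shares. With the brightest probe per gene the median difference of the 9 genes was -0.34, and 7 of the 9 differed by less than 0.6 in either direction. Scaling to the median moved the median difference of all genes from 0.13 to -0.16, and so lowered every member's difference by the same amount.

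Among the genes whose pattern over the 4 arrays was nearest to that of Lcp1, by Euclidean distance between log2 values centred on each gene's mean, were Sfrp1 at 0.88, Rab25 at 0.93, Tbcel at 0.98 and BC039142 at 1.09. Of these, Sfrp1, a secreted Wnt antagonist, was well above background on both 4T1-S arrays, and the other 3 were above it on both 4T1-A arrays alone. Sfrp1 differed by -5.63. The 3 others have only a bound in 4T1-S, at least 42.4-fold lower for Rab25, an epithelial trafficking GTPase, 25.4-fold for BC039142 and 10.7-fold for Tbcel, and their distances rest on spots not well above background. For Cobl the nearest were Slc18b1 at 0.26, Tspan7 at 0.28, Gmpr at 0.40, BB446560 at 0.43 and Tbcel at 0.46, all detected in 4T1-A alone and at least 7.15-fold to 14.5-fold lower in 4T1-S, so these distances, like the values of Cobl itself, rest on such spots as well. Tbcel, a gene of tubulin turnover, was in both sets. The 4 arrays give such distances little detail beyond the difference between the sub-lines.

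Genes of the same machinery outside the set were tested with limma over all 16172 genes. Of 126 listed actin genes, 125 were on the array and 110 passed the background filter. Of these, 3 rose, 5 fell and 102 did not pass at an adjusted p under 0.05, which is 2.73% higher and 4.55% lower, against 3.95% and 3.01% of all genes. The 3 rises include Coro6, which passed the background filter through 4T1-S alone. The lists were put together with earlier results of these data known, so nothing is read from these shares either. Over all genes the split of 639 higher and 487 lower moved with the scaling, to 189 and 887 when arrays were scaled to the median. Their median difference was 0.00, against 0.13 over all genes.

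**Figure D3:**
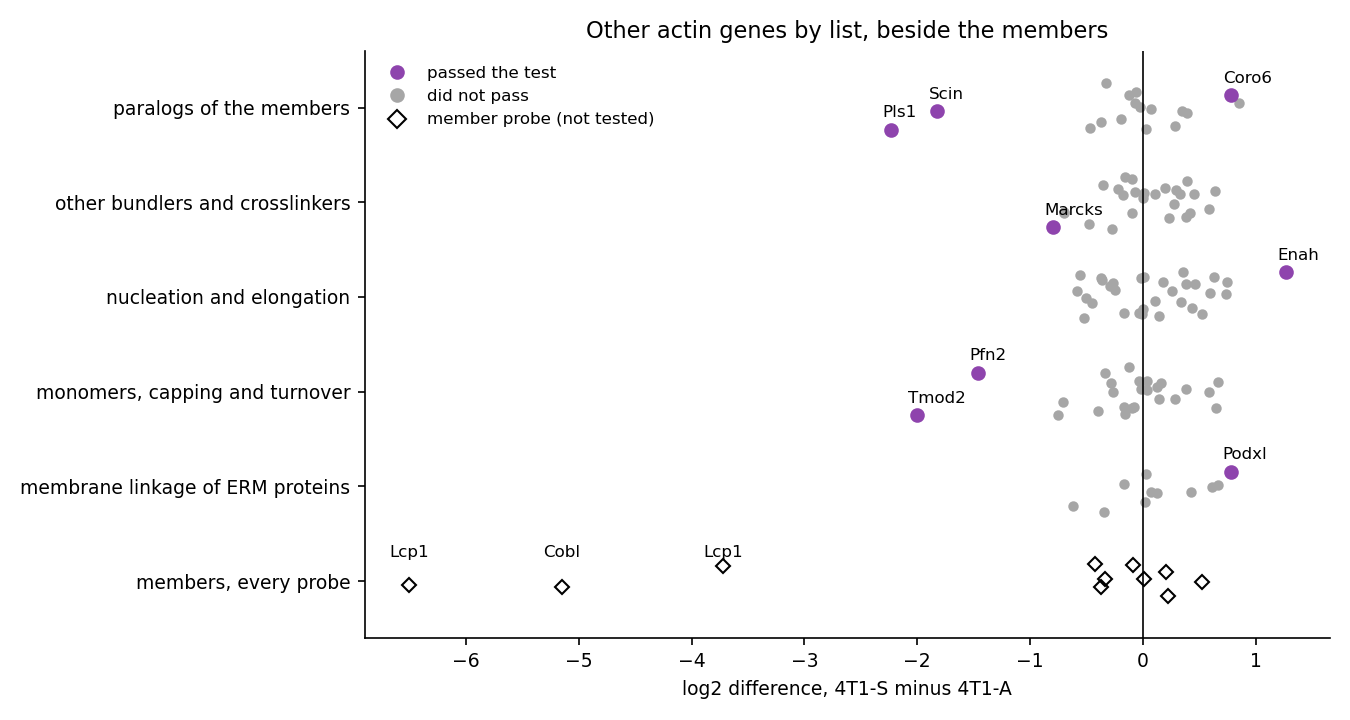
Log2 difference, 4T1-S minus 4T1-A, of the 110 other actin genes tested, 1 row per list, purple where the gene passed and grey where it did not, with the 11 member probes as open diamonds in the lowest row. Most genes lie within 1 log2 unit of 0, and the Lcp1 and Cobl probes lie further to the left than any other listed gene.

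Among paralogs of the members, 17 of 22 were tested, 1 rose, 2 fell and 14 did not pass. Pls1, which encodes the plastin of intestinal microvilli and inner-ear stereocilia, read 0.119 and 0.0725 in 4T1-S, against 0.389 and 0.493 in 4T1-A. All 4 spots were above background and the sub-lines were apart, with a 4.71-fold fall (-2.24 ± 0.27, adjusted p = 0.00306). With normexp the difference was -1.16 (adjusted p = 0.015). Pls1 thus lay lower in 4T1-S, as Lcp1 did, while the difference of Pls3 was -0.37. The difference in size between the plastins was not tested.

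Scin encodes scinderin, a gelsolin-family protein that severs and caps filaments, as a relative of Capg. It read 0.542 and 0.543 in 4T1-S, against 1.82 and 2.03 in 4T1-A. It fell 3.54-fold (-1.82 ± 0.18, adjusted p = 0.00118). Gelsolin itself, encoded by Gsn, read 31.3 and 31.5 in 4T1-S, against 34.4 and 29.6 in 4T1-A, and did not pass (-0.03 ± 0.19, adjusted p = 0.945). Coro6, a coronin, was well above background in 4T1-S alone and entered the test through that sub-line. It is counted as a rise, of 1.72-fold as measured (difference 0.78 ± 0.19, adjusted p = 0.0497). Because it entered through the sub-line where it read higher, nothing is read from that call. Its 4T1-A spots were not well above background but read higher than the lowest signal that was, so no bound applies. With normexp the difference was 0.46 and the call was lost (adjusted p = 0.109). Leaving out any single array ended that call, at an adjusted p of 0.167 and 0.193 for the 4T1-S replicates 1 and 2 and of 0.0797 and 0.104 for the 4T1-A replicates 1 and 2. It passed under 3 of 14 alternatives, with adjusted p between 0.0178 and 0.32, and with the filter on all 4 arrays it could not be fitted.

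The relatives of ezrin and cordon-bleu did not pass. Moesin, encoded by Msn, differed by -0.37 ± 0.20 (adjusted p = 0.256). Radixin, encoded by Rdx, differed by -0.06 ± 0.26 (adjusted p = 0.904), and its second probe by -0.64. Cobll1, the closest relative of Cobl, read 2.27 and 2.57 in 4T1-S, against 1.57 and 2.15 in 4T1-A, a difference of 0.40 ± 0.22 (adjusted p = 0.274). Both its 4T1-S arrays were thus above both its 4T1-A arrays, opposite in sign to Cobl, by an amount that did not pass, and its 3 probes ranged up to 0.85.

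In the other lists 5 genes passed. Tmod2, a tropomodulin that caps the slow-growing filament end, read 0.175 and 0.152 in 4T1-S, against 0.682 and 0.630 in 4T1-A, and fell 4.02-fold (-2.01 ± 0.19, adjusted p = 8.75e-04), although a second probe gave -0.01. With normexp its difference was -1.26 (adjusted p = 0.00874). Pfn2, a profilin that delivers monomers, read 0.75 and 0.748 in 4T1-S, against 1.98 and 2.16 in 4T1-A, and fell 2.76-fold (-1.46 ± 0.18, adjusted p = 0.00355). Its second probe gave -0.89. These were the 2 falls among 25 tested genes of monomers, capping and turnover, with 0 rises.

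Enah, which encodes the filament elongation factor Mena, read 2.50 and 2.85 in 4T1-S, against 1.05 and 1.17 in 4T1-A. It rose 2.41-fold (1.27 ± 0.19, adjusted p = 0.00860), with a second probe at 1.02, and was the 1 gene of 31 tested in nucleation and elongation to pass. Marcks, a membrane-bound filament crosslinker, read 8.51 and 7.45 in 4T1-S, against 14.7 and 13.1 in 4T1-A, and was the 1 gene of 26 other bundlers and crosslinkers to pass, as lower (-0.80 ± 0.19, adjusted p = 0.0492). Podxl, a membrane sialomucin bound by ezrin through an adaptor, was the 1 gene of 11 in the list of membrane linkage to pass. It read 1.46 and 1.5 in 4T1-S, against 0.853 and 0.873 in 4T1-A, and rose by 0.78 ± 0.18 (adjusted p = 0.0453), with a second probe at 0.36. These counts take each gene's brightest probe, and dimmer probes could differ. A dimmer probe of Mtss1, among the crosslinkers, gave -1.39, against 0.00 for the brightest. For Cd44, in membrane linkage, a dimmer probe gave -1.06, against -0.17.

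Some of these calls rested on few arrays. Without 4T1-S replicate 1 the calls of Enah (adjusted p = 0.0563), Marcks (0.143) and Podxl (0.163) were lost, and without 4T1-S replicate 2 those of Enah (0.0954), Pfn2 (0.0511), Marcks (0.203) and Podxl (0.178). Marcks (0.203) and Podxl (0.164) lost theirs without 4T1-A replicate 1, and Podxl (0.0518) without 4T1-A replicate 2. With no filter on background Pls1 (0.0623) and Enah (0.0625) were lost as well. Over all alternatives the adjusted p reached 0.203 for Marcks, which lost its call in 7 of 15, and 0.178 for Podxl, which lost its call in 11 of 15, while Scin and Tmod2 passed under all 15 alternatives.

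**Figure D4:**
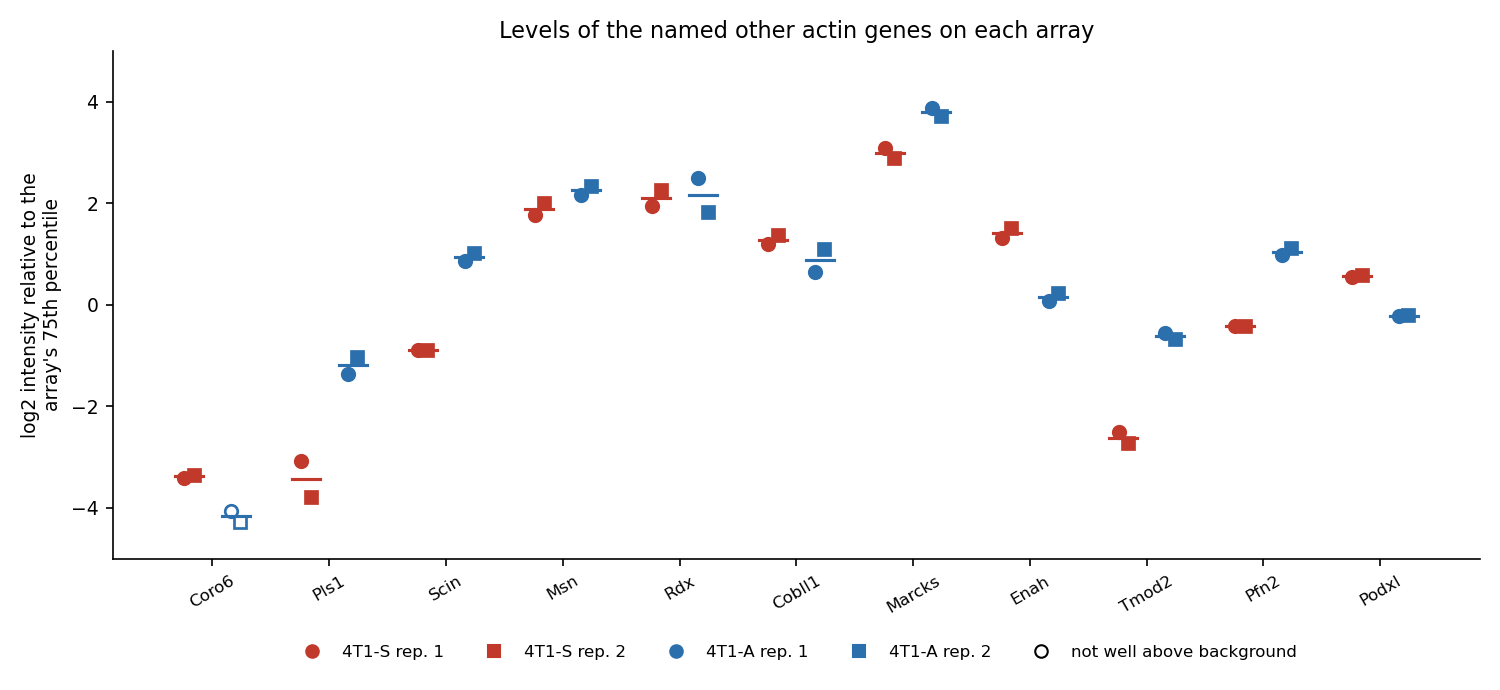
Log2 intensity relative to the array's 75th percentile for the 11 named actin genes outside the set, drawn with 4T1-S left of 4T1-A and with open symbols for spots not well above background. The widest gaps between the means of the sub-lines are those of Pls1, Tmod2, Scin and Pfn2, lower in 4T1-S, and of Enah, higher. By less, Marcks sits lower and Coro6 and Podxl sit higher.

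Because Lcp1 and Coro1a are leukocyte genes, 16 leukocyte markers were read on the same arrays. Their summed level was 1.72 and 1.75 in 4T1-S, against 2.19 and 3.25 in 4T1-A. Without Itgb2 the sum of the other 15 was 1.41 and 1.39 in 4T1-S, against 1.27 and 1.37 in 4T1-A. Of the 16, 6 were well above background on no array (Cd52, Laptm5, Tyrobp, Cd53, Itgam and Adgre1), and Ptprc, the pan-leukocyte phosphatase, was above it on 1 4T1-S array only. Among 9 tested, 0 rose, 1 fell and 8 did not pass, with a median difference of 0.40. The fall was that of Itgb2, the integrin chain of leukocytes, singled out after its values were seen. It read 0.311 and 0.357 in 4T1-S, against 0.913 and 1.87 in 4T1-A (-1.97 ± 0.32, adjusted p = 0.0129), but it passed no more when 4T1-S replicate 1 (0.109) or replicate 2 (0.0954) was left out, or with no filter on background (0.101). It passed under the other 12 of 15 alternatives. The part of such cells in the Lcp1 difference was not tested.

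**Figure D5:**
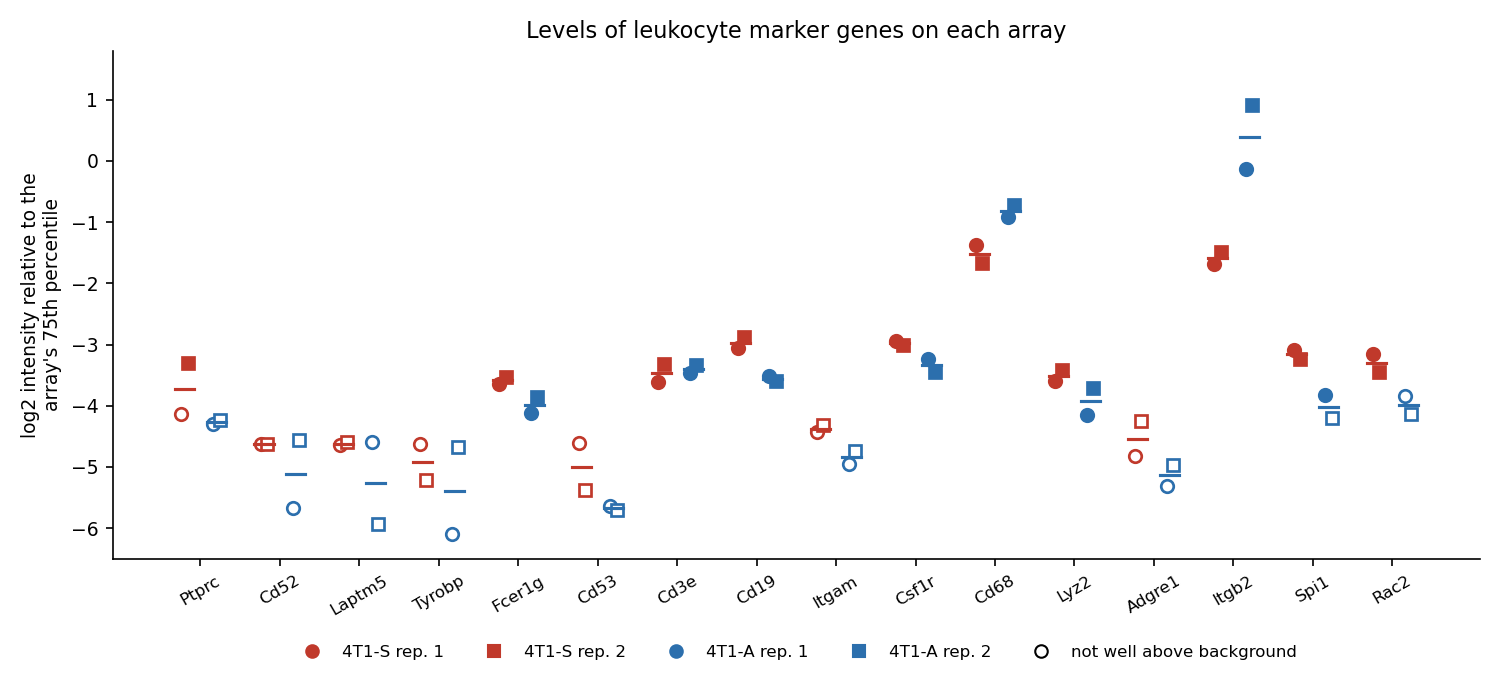
Log2 intensity relative to the array's 75th percentile for 16 leukocyte markers, 4T1-S left of 4T1-A, with open symbols for spots not well above background. In all, 6 markers are open on all arrays, and Itgb2 has the widest gap between the means of the sub-lines, lower in 4T1-S.

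Epithelial markers were detected in both sub-lines, while epithelial identity itself was not tested. Keratin 8, encoded by Krt8, read 129.8 and 127 in 4T1-S, against 139 and 155 in 4T1-A. All 8 epithelial markers were well above background on all arrays. Yet 6 of the 8 fell in 4T1-S, which is 75% against 3.01% of all genes, and the median difference was -2.34. The list was put together with earlier results of these data known, so nothing is read from this share. The 6 were Epcam (-3.78) and Cdh1 (-1.11), adhesion molecules of epithelia, Cldn7 (-2.82), Cldn4 (-2.65), Krt19 (-2.61) and Krt14 (-2.06). Krt8 (-0.19 ± 0.18, adjusted p = 0.534) and Krt18 (-0.14 ± 0.25, adjusted p = 0.749) did not pass. The part of the 8 markers in the member values was not tested. Of 8 fibroblast markers 2 were above background on all arrays, and their summed level was 1.45 and 1.41 in 4T1-S, against 0.731 and 0.960 in 4T1-A. Of 4 tested, with a median difference of 0.74, 1 is counted as a rise and 3 did not pass. The rise was Col1a1, a collagen chain, which was well above background in 4T1-S alone and entered the test through that sub-line. Its measured difference was 1.95 ± 0.26 (adjusted p = 0.0052), or at least 2.59-fold by the bound used for Lcp1. That p rests on 4T1-A readings of 0.0271 and 0.0416, not well above background, so nothing is read from the call. Of its 3 probes 1 was tested. Pdgfra, a growth factor receptor, made up the largest share of the sum, with 0.780 and 0.758 in 4T1-S, against 0.324 and 0.529 in 4T1-A. Of 5 endothelial markers, 4 were above background on no array and Tek on 1.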

How the data were processed

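Spot intensity values were extracted by the authors with Agilent Feature Extraction 9.1, per the submitters' processing notes and the file headers, with spatial and multiplicative detrending switched on. In the deposited series table each value is a linear ratio, namely processed intensity over the array's 75th percentile, found from the values. Gene names came from 4T1-S replicate 2, since 47 names differ in the file of 4T1-A replicate 1, which also holds intensities to 3 digits.

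Each processed intensity was divided by the 75th percentile of its array and taken to log2, the percentile being over 43379 spots other than controls, of which 54.9% to 59.2% were well above background. Outlier spots were left out and spots of a probe averaged. A probe counted as above background where more than 1 in 2 of its spots were. Differences and SE came from limma 3.58.1 in R 4.3.3 (lmFit and eBayes, residual degrees of freedom 2), fitted over probes for the members and over genes, by their brightest probe, for the lists, where 1 or both sub-lines had 2 arrays above background. P-values are 2-sided and were adjusted by the Benjamini-Hochberg method over all genes. Probes were named by RefSeq accession (22951), by symbol (9768) or as in the file (8455). The fit was tested on simulated data.

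The members and lists were chosen with earlier results of these data known. Named genes are all members, up to 2 rises and 2 falls per list, paralogs that passed, Pls1, Msn, Rdx and Cobll1, and the 5 genes nearest Lcp1 and Cobl, of which 1 is not reported here. Gsn, Mtss1, Cd44 and marker genes were named after their values were seen. Promoter sequences are from RefSeq, GRCm38.p6.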

Additional observations from a re-analysis of the deposited data

How the results depend on the processing

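Each of the 11 member differences was recomputed under 12 or 13 alternatives. None of the 3 differences of at least 2-fold changed sign. Values moved by more than the SD between replicates for 8 probes with scaling to the median, 5 with normexp, 2 with quantile normalization and 1 with cyclic loess. The other settings could not move most of them by that much, since they keep the same values or leave out 1 of 2 arrays, and so say nothing of stability. Among other actin genes, the counts of 3 higher and 5 lower became 1 and 9 with scaling to the median. The count of higher genes was 1 with quantile normalization, cyclic loess, the filter on all 4 arrays, and an intensity trend with robust fitting. With no filter on background limma called 0 higher and 3 lower (18 and 13 at an unadjusted p under 0.05). Leaving out 1 array gave 0 to 7 higher and 3 to 7 lower: 1 and 5 without 4T1-A replicate 1, 7 and 7 without 4T1-A replicate 2, 0 and 4 without 4T1-S replicate 1, and 0 and 3 without 4T1-S replicate 2. In these last 2 fits 12 and 8 were higher at an unadjusted p under 0.05, and the lone array was assumed to vary as the others do. Over all genes 639 were higher and 487 lower, against 266 and 464 with quantile normalization, 250 and 533 with cyclic loess and 231 and 279 with normexp. With the replicate number as a block (replicate block) 15 of the other actin genes were higher and 11 lower, against 2520 higher and 1166 lower over all genes. The labels give no pairing beyond the number, and the deviations of same-numbered arrays correlated at 0.42 over genes. Dim spots limit Lcp1 probe A_51_P275302 and Cobl in 4T1-S, whose scanner errors were 32.0% to 54.9% there. The cause of the moves with scaling was not tested.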
